A study of Mus musculus with 4 samples.

Results

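The 10 genes described here encode proteins of the neural extracellular matrix: the lectican proteoglycans Ncan, Bcan and Vcan, the tenascins Tnc and Tnr, the membrane-bound proteoglycans Ptprz1 and Cspg5, and the matricellular proteins Spon1, Sparc and Sparcl1. They are 10 of the 18169 rows in the expression table, each name occurs in 1 row, and all 10 passed the minimum used for testing, a mean of at least 1 TPM (a transcript level corrected for transcript length and scaled to the same total in every sample). Spon1 was chosen by its TPM values, which separated the genotypes, so it is described without a test. The other 9 were named for their place in the matrix of the neural stem cell niche, with earlier results of these data known.

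RNA was sequenced from primary neural stem/progenitor cells (NSCs) of C57BL/6 mice, with 2 +/+ and 2 Chd5-/- samples, each a culture from the periventricular region of 1 newborn brain kept in proliferation medium with EGF and FGF. Chd5 encodes a chromatin remodeler, and the labels do not describe the allele further. All cultures came from postnatal day 1 according to the protocol, whereas the age entries put +/+ replicates 1 and 2 at days 1 and 2, and Chd5-/- replicates 1 and 2 at days 3 and 4. By those entries age and genotype cannot be told apart.

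The matrix around neural stem cells is built on hyaluronan, a long sugar polymer, to which lecticans bind at one end while their other end binds tenascins. Most of these core proteins carry chondroitin sulfate chains, and the matrix they form holds growth factors near the cells and limits neurite growth and migration. Matricellular proteins such as SPARC and F-spondin are secreted into this matrix without being structural parts of it, and change how cells attach to it. Radial glia, astrocytes and oligodendrocyte progenitors are all known sources of these proteins in the brain.

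The promoter letters of 4 genes are shown first, because these genes represent 2 of the patterns in the results. Sparc and Vcan were higher in each Chd5-/- sample than in both +/+ samples, though Vcan was at 93.65 TPM in replicate 1 and 28.04 TPM in replicate 2. Tnr and Bcan were at least 2-fold higher in Chd5-/- replicate 2 than in every other sample. Bcan was also higher in each Chd5-/- sample than in both +/+ samples, so the 2 patterns overlap. Vcan and other genes of the 10 were set apart in Chd5-/- replicate 1, as described below. Each window runs from 250 bases before to 50 bases after a RefSeq transcription start on GRCm38.p6, is written 5′ to 3′ on the strand of the gene, and has every CG dinucleotide in capitals.
Sparc, chr11:55420031-55420330, minus strand: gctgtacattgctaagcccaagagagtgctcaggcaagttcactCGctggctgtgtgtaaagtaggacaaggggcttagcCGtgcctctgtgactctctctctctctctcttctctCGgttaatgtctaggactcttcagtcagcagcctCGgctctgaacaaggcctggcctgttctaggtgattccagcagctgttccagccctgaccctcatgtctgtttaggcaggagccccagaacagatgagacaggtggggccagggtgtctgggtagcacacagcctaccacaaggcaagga
Vcan, chr13:89742463-89742762, minus strand: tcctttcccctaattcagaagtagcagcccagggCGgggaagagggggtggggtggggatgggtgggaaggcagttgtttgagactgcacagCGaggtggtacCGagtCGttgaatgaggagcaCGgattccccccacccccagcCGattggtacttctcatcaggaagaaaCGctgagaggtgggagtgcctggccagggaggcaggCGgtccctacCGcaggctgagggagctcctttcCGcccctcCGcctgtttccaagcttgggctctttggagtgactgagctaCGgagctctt
Tnr, chr1:159523519-159523818, plus strand: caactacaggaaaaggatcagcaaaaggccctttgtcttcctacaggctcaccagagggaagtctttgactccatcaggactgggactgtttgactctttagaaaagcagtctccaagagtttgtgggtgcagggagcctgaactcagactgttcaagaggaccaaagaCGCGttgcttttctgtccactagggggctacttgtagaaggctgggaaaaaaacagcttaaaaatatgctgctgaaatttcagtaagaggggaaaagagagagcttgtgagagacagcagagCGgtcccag
Bcan, chr3:88000307-88000606, minus strand: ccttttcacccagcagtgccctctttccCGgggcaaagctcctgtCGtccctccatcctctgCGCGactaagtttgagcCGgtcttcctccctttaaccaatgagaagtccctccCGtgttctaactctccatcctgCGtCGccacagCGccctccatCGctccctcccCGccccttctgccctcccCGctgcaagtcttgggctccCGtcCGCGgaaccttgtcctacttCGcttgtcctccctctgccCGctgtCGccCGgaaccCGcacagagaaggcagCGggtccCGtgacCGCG

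The windows of the genes paired above were not alike in CG content. Sparc had 4 CG dinucleotides and Vcan 12, while Tnr had 3 and Bcan 24, against a median of 7 over all 32851 windows of this length. At least as many CG dinucleotides as in Bcan occurred in 20.0% of all windows, and at least as many as in Tnr in 76.7%. Of the 10 genes, 7 had a window in the RefSeq table. Ptprz1 had 29 CG dinucleotides, Ncan 9, and the 2 windows of Tnc, which overlap, had 16 and 10. The letters TATAAA, read on the strand of the gene, were in both windows of Tnc and in none of the other 6 genes, and in 8.32% of all windows.

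The 4 libraries did not form 2 tight pairs. The rank correlation of log2(TPM + 1) over 12576 tested rows was 0.974 between the +/+ samples and 0.904 between the Chd5-/- samples. The +/+ samples differed by 1 or more on the log2 scale in 4.05% of rows and the Chd5-/- samples in 16.9%. Chd5 itself was listed at 0.39 and 0.37 TPM in +/+ and at 0.06 and 0.04 TPM in Chd5-/- NSCs. NSC markers were present in every library, with a summed level over 8 genes of 6559 to 7997 TPM in +/+ and 3545 to 5834 TPM in Chd5-/- samples, most of it from Fabp7 and Vim. Without overlap between genotypes, 4 of the 8 were lower in Chd5-/- samples (13.0% of all rows) and 1, Egfr, was higher (46.3%). Prom1 ranged from 0.99 TPM in +/+ replicate 1 to 45.27 TPM in Chd5-/- replicate 1. Endothelial and microglial markers summed to at most 1.40 and 0.75 TPM, over the 6 and 3 genes analysed. In such bulk samples, fewer cells of a type and less RNA per cell cannot be told apart. The table holds no read numbers, so depth and counting error are unknown.

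In +/+ NSCs the levels of the 10 genes spanned from a few TPM for Tnr to the highest level, that of Ptprz1, a receptor tyrosine phosphatase whose secreted form is the proteoglycan phosphacan. Its mean was 1414 ± 122 TPM (SD, n = 2, as for all means here), followed by Cspg5 at 422 ± 112 and Ncan at 252 ± 5.11 TPM. Sparc was at 156 ± 51.8, Sparcl1 at 77.9 ± 76.8, Tnc at 64.7 ± 0.933, Bcan at 36.8 ± 16.1, Spon1 at 30.8 ± 0.205, Vcan at 7.57 ± 1.33 and Tnr at 2.09 ± 1.19 TPM. Neighbours from Sparc to Spon1 were not all apart beyond their spread, since Sparcl1 reached from 23.63 to 132.26 TPM and Bcan from 25.42 to 48.21 TPM, across the values of Tnc and Spon1. Ptprz1 alone held 53.5% and 61.3% of the summed TPM of the 10 genes in the +/+ samples. By their mean in Chd5-/- NSCs the order was Ptprz1, Sparcl1, Sparc, Cspg5, Ncan, Spon1, Tnc, Bcan, Vcan and Tnr, and the values of neighbours overlapped except between Sparc and Cspg5 and between Cspg5 and Ncan. In the Chd5-/- samples Ptprz1 held 15.8% and 37.0% of the sum, and in replicate 1 the leading gene was Sparcl1, with 37.7%. The sum over the 10 genes was 2482 and 2447 TPM in +/+, and 3593 and 4106 TPM in Chd5-/- samples.

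**Figure D1:**
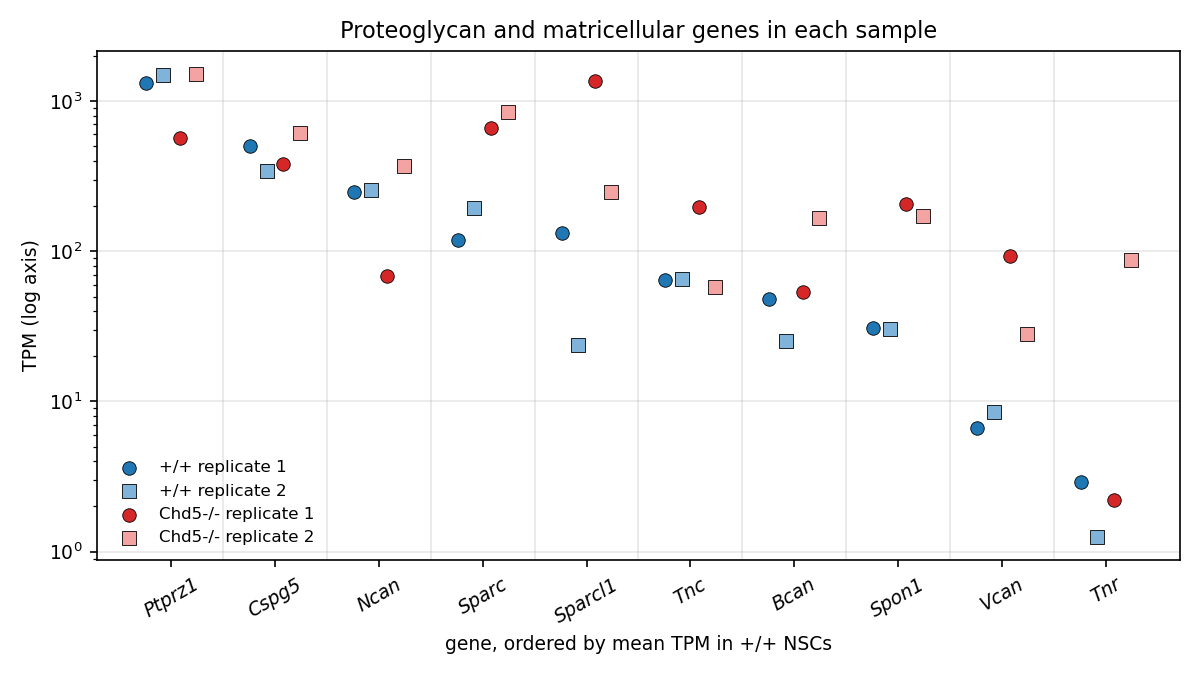
TPM of the 10 genes (log axis) in each of the 4 samples, with genes ordered by their mean in +/+ NSCs. Spon1, Sparc, Vcan, Sparcl1 and Bcan have both Chd5-/- samples (red) above both +/+ samples (blue), while Tnr is high in Chd5-/- replicate 2 alone, at 87.51 TPM, and Ncan is low in Chd5-/- replicate 1, at 68.34 TPM.

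Spon1 (GRCm38, chr7:113765998-114043370, plus strand) encodes F-spondin, a secreted protein of the developing floor plate that guides growing axons and binds the matrix. It was at 30.9 and 30.61 TPM in +/+ NSCs and at 207.99 and 171.83 TPM in Chd5-/- NSCs, a 6.17-fold ratio of the means. Both pairs of replicates lay close together, and the genotypes were far apart. The difference in log2(TPM + 1), on which all differences below are given as Chd5-/- minus +/+, was 2.58. It went from 2.21 to 2.62 over the other scalings, filters and fits, and from 2.44 to 2.72 with a sample left out. Spon1 was picked for this separation, so the narrow range is tied to that choice. The 3 tested rows with the most similar course over the 4 samples, by Euclidean distance between row-centred log2(TPM + 1) values, were 2810047C21Rik1 at a distance of 0.264, Ndufb7 at 0.337 and Atp5d at 0.358. Ndufb7 and Atp5d encode subunits of mitochondrial respiratory complexes, and none of the 3 is in the matrix lists used here.

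Sparc rose in Chd5-/- NSCs, with both samples well above both +/+ samples. The gene lies at chr11:55394500-55423183 on the minus strand and encodes a collagen- and calcium-binding glycoprotein, also called osteonectin. Its TPM was 119.53 and 192.81 in +/+ and 664.18 and 850.36 in Chd5-/- NSCs, a 4.85-fold ratio of the means. With limma, the difference was 2.30 (standard error 0.32, unadjusted p = 0.000657, adjusted p = 0.120 over all tested rows). Here and below, a gene passes the test at an unadjusted p-value under 0.05 in limma, not at an adjusted one. No other gene of the 9 had a smaller p-value. With trends in GC content and transcript length removed the difference was 1.72, and it ranged from 1.96 to 2.64 with a sample left out.

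Sparcl1, at chr5:104079111-104113733 on the minus strand, encodes hevin, a relative of SPARC secreted by astrocytes that promotes synapse formation. Its TPM was 132.26 and 23.63 in +/+ and 1355.83 and 249.47 in Chd5-/- NSCs. The groups did not overlap, but within each genotype replicate 1 was more than 5 times replicate 2, by 5.60 in +/+ and 5.43 in Chd5-/- NSCs. The difference of 3.35, the highest among the 10 genes, came with a standard error of 1.09 (limma, unadjusted p = 0.0258, adjusted p = 0.165). It was 2.13 without +/+ replicate 2 (limma, adjusted p = 0.777) or without Chd5-/- replicate 1 (limma, adjusted p = 0.154), and did not pass the unadjusted threshold in either case. It was 4.56 without +/+ replicate 1 and 4.57 without Chd5-/- replicate 2. Sparc made up 47.5% and 89.1% of the summed TPM of Sparc and Sparcl1 in +/+ samples, and 32.9% and 77.3% in Chd5-/- samples, which overlapped.

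The 5 tested genes of the SPARC family, Sparc and Sparcl1 included, were all higher in Chd5-/- NSCs. This grouping was chosen after the values were seen, so its counts only describe the genes and are no test against the share of all rows. The family shares the calcium-binding domain of SPARC, and 8 of its genes were analysed, of which 5 passed the minimum. All 5 had no overlap between genotypes, with higher values in Chd5-/- NSCs, where 46.3% of all tested rows did, and an unadjusted p-value under 0.05, which 21.9% of all tested rows had in that direction. Smoc1, which encodes a basement membrane protein that restrains BMP signalling, was at 61.42 and 38.87 TPM in +/+ and at 237.19 and 492.81 TPM in Chd5-/- NSCs, a difference of 2.78 (limma, adjusted p = 0.120). Spock2, which encodes the proteoglycan testican-2, was at 7.6 and 6.72 TPM and at 33.66 and 33.61 TPM, a difference of 2.09 (limma, adjusted p = 0.120). Fstl1 went from 27.0 ± 4.58 to 43.5 ± 7.20 TPM, a difference of 0.67. Smoc2, Spock1 and Spock3 were at or below 1.4 TPM in every sample. Once GC and length trends were removed, Sparc, Sparcl1, Smoc1 and Spock2 still passed the unadjusted threshold in limma and Fstl1 did not. Of all 11700 rows, 538 were higher and 712 lower in that setting.

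Among the lecticans, proteoglycans that bind hyaluronan, Vcan rose, Bcan was higher in both Chd5-/- samples without passing the test, and Ncan went in opposite directions in the 2 Chd5-/- samples. Vcan, at chr13:89655312-89742509 on the minus strand, encodes versican, a large proteoglycan of embryonic and mesenchymal matrix. Its TPM was 6.63 and 8.51 in +/+ and 93.65 and 28.04 in Chd5-/- NSCs. Both Chd5-/- samples were above both +/+ samples, and the Chd5-/- samples differed from each other 3.34-fold. The difference was 2.62 (standard error 0.58, limma, unadjusted p = 0.00580, adjusted p = 0.121). It was 1.77 without Chd5-/- replicate 1 and 3.47 without Chd5-/- replicate 2.

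Bcan, at chr3:87987531-88000230 on the minus strand, encodes brevican, a lectican of glia and perineuronal nets. Its TPM was 48.21 and 25.42 in +/+ and 53.6 and 165.97 in Chd5-/- NSCs. The groups were separated only by the gap between 48.21 and 53.6 TPM. The difference of 1.40 (limma, unadjusted p = 0.0663, adjusted p = 0.235) was 0.60 without Chd5-/- replicate 2 and 2.21 without Chd5-/- replicate 1. The transcript of Bcan had the highest GC content of the 10, 60.7%, against a median of 49.6% over all tested rows. Over all 11700 rows with a GC value, the genotype difference rose with GC content (rho = 0.62), so this is not particular to Bcan. The difference of Bcan was 0.36 once trends in GC content and length were taken out.

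Ncan, at chr8:70093085-70120873 on the minus strand, encodes neurocan, the main lectican of the newborn brain. Its TPM was 248.71 and 255.94 in +/+ NSCs, but 68.34 and 367.53 in Chd5-/- NSCs, so that 1 Chd5-/- sample lay below and the other above both +/+ samples. The difference of -0.66 had a standard error of 0.77 (limma, unadjusted p = 0.428, adjusted p = 0.619). It changed sign, to 0.54, without Chd5-/- replicate 1, and was -1.87 without Chd5-/- replicate 2.

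The make-up of the lecticans within a sample does not depend on how samples are scaled against each other. Vcan made up 2.18% and 2.94% of the summed TPM of Ncan, Bcan and Vcan in +/+ samples, and 43.4% and 4.99% in Chd5-/- samples. Ncan made up 81.9% and 88.3% in +/+ samples, and 31.7% and 65.5% in Chd5-/- samples. For Ncan, Bcan and Vcan alike, the shares of the Chd5-/- samples lay outside the range of the +/+ samples. The 3 shares of a sample make up a whole, so they do not move independently. In Chd5-/- replicate 2 the share of Ncan was lower although its TPM, 367.53, was above both +/+ samples. The shares are not free of the trend with GC content, which was 60.7% for Bcan and 43.7% for Vcan. These shares are given as a description and were not tested. The further lectican, Acan, was at or below 0.04 TPM in every sample.

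**Figure D2:**
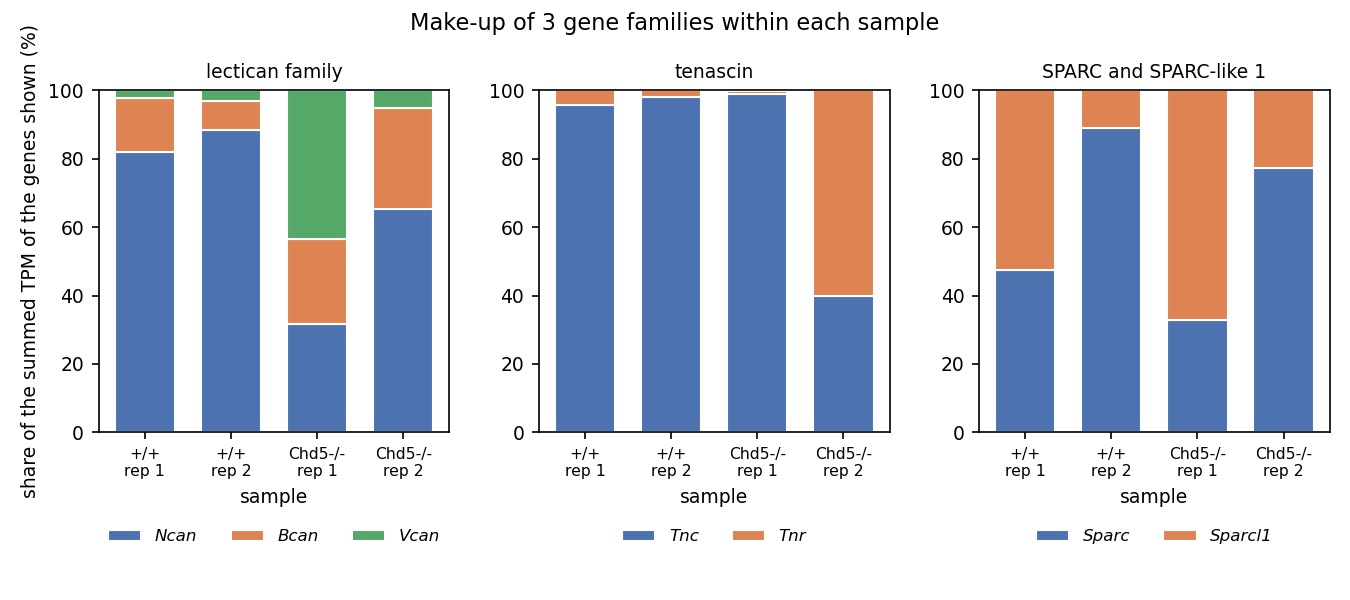
Share (%) of the summed TPM of each family held by each gene, in each of the 4 samples; the bars are stacked to 100. Vcan holds 43.4% of the lectican bar in Chd5-/- replicate 1, and Tnr holds 60.1% of the tenascin bar in Chd5-/- replicate 2.

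Of the tenascins, which link lecticans to each other and to cell surface receptors, each was high in a different Chd5-/- sample. Tnc, at chr4:63959785-64047015 on the minus strand, encodes tenascin-C of the stem cell niche and of migrating progenitors. It was at 64.04 and 65.36 TPM in +/+ and at 195.87 and 58.04 TPM in Chd5-/- NSCs. Only Chd5-/- replicate 1 was above the +/+ samples. The difference of 0.71 (limma, unadjusted p = 0.267, adjusted p = 0.479) was -0.15 without Chd5-/- replicate 1 and 1.58 without Chd5-/- replicate 2.

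Tnr, at chr1:159523769-159931729 on the plus strand, encodes tenascin-R, which is made by oligodendrocyte lineage cells and some neurons and binds lecticans. It was at 2.93 and 1.25 TPM in +/+ and at 2.22 and 87.51 TPM in Chd5-/- NSCs, so that 1 sample accounts for the higher mean. The Chd5-/- samples differed 39.4-fold. The difference of 2.51 had a standard error of 1.53 (limma, unadjusted p = 0.159, adjusted p = 0.363), was 0.11 without Chd5-/- replicate 2 and was 4.90 without Chd5-/- replicate 1. Tnr made up 4.38% and 1.88% of the tenascin TPM in +/+ samples, and 1.12% and 60.1% in Chd5-/- samples.

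Neither membrane-bound proteoglycan passed the test. Ptprz1, at chr6:22875502-23052916 on the plus strand, was at 1327.25 and 1500.15 TPM in +/+ and at 566.95 and 1517.82 TPM in Chd5-/- NSCs. Chd5-/- replicate 2 was level with the +/+ samples and replicate 1 was below them. The difference of -0.60 (limma, unadjusted p = 0.282, adjusted p = 0.492) was 0.11 without Chd5-/- replicate 1. Cspg5, at chr9:110243783-110262576 on the plus strand, encodes neuroglycan C, a brain proteoglycan related to ligands of the ErbB receptors. It was at 501.65 and 343.14 TPM in +/+ and at 384.29 and 609.29 TPM in Chd5-/- NSCs, with overlapping groups. Its difference of 0.22 (standard error 0.34, limma, unadjusted p = 0.545, adjusted p = 0.714) was -0.15 after median-of-ratios scaling.

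As deposited, the genes with an unadjusted p-value under 0.05 in limma made up a share near that of all tested rows. That count is not a result about these genes. Of the 9 genes other than Spon1, 3 (Sparc, Vcan and Sparcl1) had an unadjusted p-value under 0.05 and were higher in Chd5-/- NSCs, where 21.9% of all tested rows did, and 0 were lower, where 2.27% did. In either direction the share over all rows was 24.1%. The excess of higher rows depended on GC content and length. As deposited, 2748 rows were higher and 285 lower in limma, and with those trends removed 538 were higher and 712 lower of 11700. Sparc, Vcan and Sparcl1 were still higher at an unadjusted p-value under 0.05 in limma with those trends removed. The 9 genes were named with earlier results of these data known, so no set test was made. None of the 9 passed an adjusted threshold of 0.05 in limma, which 7 of 12576 rows (0.0557%) did. The genotypes did not overlap for 4 of the 9 (59.4% of all rows), and all 4 were higher in Chd5-/- NSCs (46.3% of all rows) and 0 lower (13.0% of all rows). The median difference of the 9 genes was 1.40, and that of all rows was 0.34. Median-of-ratios scaling sets this median near 0 by construction (0.0051), so it cannot show whether most rows changed. The 20 most abundant rows held 32.4% and 35.6% of the TPM in +/+ and 21.6% and 22.8% in Chd5-/- samples. Rescaled less those rows, the median was 0.13. The cause of the shift was not tested, and each difference is set beside 0.34. Relative to 0.34, Sparc was at 1.96, Vcan at 2.28, Sparcl1 at 3.01 and Ptprz1 at -0.94.

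**Figure D3:**
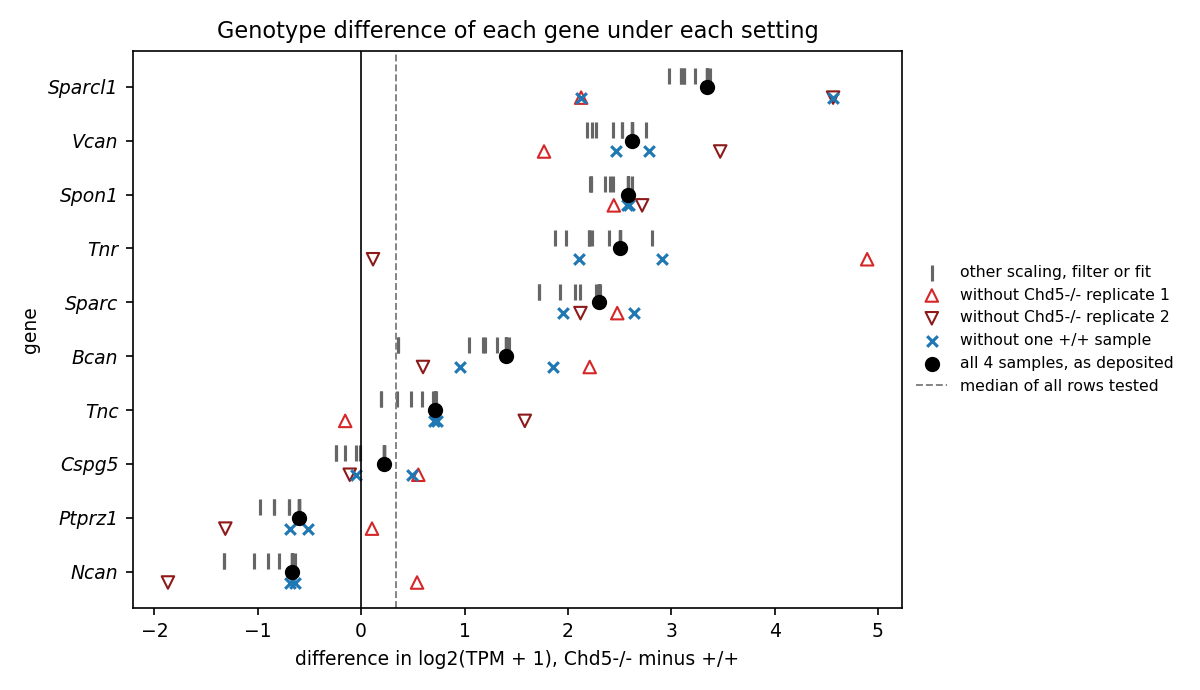
Difference in log2(TPM + 1) between genotypes (Chd5-/- minus +/+) for each gene, with all 4 samples as deposited (black), under other scalings, filters and fits (grey ticks) and with a sample left out (open triangles for Chd5-/- samples, blue crosses for +/+ samples). Sparc keeps all its values between 1.72 and 2.64, while Tnr goes from 0.11 to 4.90 and Ncan from -1.87 to 0.54 with the Chd5-/- sample that is left out. Spon1, picked for its values, stays between 2.21 and 2.72.

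Most of these genes differed between the 2 Chd5-/- samples. The Chd5-/- samples differed by 1 or more on the log2 scale in 7 of the 10 genes, where 16.9% of all tested rows did. The +/+ samples did so in 1 of the 10, Sparcl1, where 4.05% of all rows did. Chd5-/- replicate 1 was at least 2-fold above every other sample for Tnc, Vcan and Sparcl1, as it was for 5.79% of all rows, and at most 0.5 times every other sample for Ncan and Ptprz1, as it was for 1.98%. Chd5-/- replicate 2 was at least 2-fold above every other sample for Tnr and Bcan, as it was for 5.11%. It was at most 0.5 times every other sample for 0 of the 10, where 2.34% of all rows were. Of the +/+ samples, replicate 2 was low in this way for Sparcl1 (3.63% of all rows) and replicate 1 for none (1.79%). Spon1, Sparc and Cspg5 were not set apart in a single sample by this measure. With Chd5-/- replicate 1 left out, 4 of the 9 genes (Tnr, Bcan, Vcan and Sparc) had an adjusted p-value under 0.05 in limma, and with Chd5-/- replicate 2 left out 6 did (Tnc, Ncan, Vcan, Ptprz1, Sparc and Sparcl1). The remaining Chd5-/- sample is then assumed to vary like the +/+ samples, and 1247 and 1086 rows passed in all.

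Some markers of other cell types moved with these differences, and others of the same lists did not. In Chd5-/- replicate 2, where Tnr and Bcan were high, the oligodendrocyte lineage gene Gpr17 was at 76.45 TPM, against at most 3.77 TPM in the other samples. Olig2 of the same list was instead at 169.68 TPM there and at 190.31 TPM in Chd5-/- replicate 1. The whole list of oligodendrocyte lineage markers, 9 of 10 genes analysed, summed to 575 and 633 TPM in +/+ samples and to 505 and 1004 TPM in Chd5-/- samples, while the mature marker Mag was at or below 0.14 TPM throughout. In Chd5-/- replicate 1, where Ncan and Ptprz1 were low, 4 of 8 astrocyte markers (Gfap, Slc1a2, Slc1a3 and Aldoc) were at most 0.5 times every other sample. The other 4 (Aqp4, Aldh1l1, S100b and Gja1) were not, with Gja1 at 332.51 TPM there, against 179.69 and 385.61 TPM in +/+ samples. The whole list summed to 979 TPM in that sample, against 2435 TPM in replicate 2 and 2749 and 2809 TPM in +/+ samples. In the same sample, where Vcan, Tnc and Sparcl1 were high, Col3a1, Dcn and Acta2 of the mesenchymal, pericyte and meningeal list were at 7.41, 4.17 and 9.55 TPM, against at most 0.3 TPM elsewhere, while Zic1 of the same list was low there, at 6.51 TPM against 33.36 to 43.16 TPM. That list of 12 genes summed to 67.3 and 58.8 TPM in +/+ and to 60.4 and 50.7 TPM in Chd5-/- samples, with Col1a1 at or below 0.07 and Lum at or below 0.37 TPM. Of the neuron markers, Gap43 was at 47.73 and 28.03 TPM in +/+ and at 147.89 and 120.73 TPM in Chd5-/- NSCs, high in both Chd5-/- samples as Spon1 and Sparc were. Syt1 was at 0.73 TPM in both +/+ samples and at 2.21 and 7.62 TPM in Chd5-/- samples. Dcx was not higher, at 2.37 and 0.28 TPM in +/+ and at 0.48 and 1.12 TPM in Chd5-/- samples, and Map2 overlapped between genotypes. The neuron list of 8 genes summed to 555 and 546 TPM in +/+ and to 520 and 919 TPM in Chd5-/- samples, most of it from Map2, and Rbfox3 was at or below 0.07 TPM. The part of these cell types in the results was not tested.

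The genes that build, anchor and cut this matrix were described by 7 lists, with 81 genes tested besides the 10. At an unadjusted p-value under 0.05, 18 were higher in Chd5-/- NSCs and 4 lower, or 27.2%, close to the 24.1% of all rows. None passed the adjusted threshold (smallest adjusted p = 0.120, limma). The counts below from TPM as deposited are to be read against the 21.9% of all rows that were higher and the 2.27% that were lower. Of the 81 genes, 9 had a +/+ mean under 1 TPM and passed the minimum only through the Chd5-/- samples. Other scalings and trend removal gave fewer higher and more lower calls over all rows too, so counts under them have a background of their own. Without their GC and length trends, 2 were higher and 9 lower of 78, or 14.1% against 10.7% of all rows (538 higher and 712 lower of 11700). The 2 were Smoc1 and Spock2, and the 4 genes lower as deposited, Chst11, Gpc6, Itgav and Reln, were among the 9.

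Hyaluronan itself is made by the Has enzymes and tied to lecticans by link proteins. Of 6 such genes analysed, 2 passed the minimum and 0 passed the test. Has2 was at 1.45 and 0.88 TPM in +/+ and at 3.59 and 1.96 TPM in Chd5-/- NSCs (difference 0.78), and Hapln4 at 2.28 and 2.92 TPM and at 6.05 and 3.99 TPM (0.73). The other 4 were under 1 TPM in every sample. Among hyaluronan receptors and hyaluronidases, 1 of 5 tested genes passed (21.9% of all rows were higher), Hyal2, which degrades hyaluronan, with a difference of 1.22 (limma, unadjusted p = 0.0165). It did not pass after quantile normalization (0.61) or with GC and length trends removed (0.46). The hyaluronan receptors Hmmr and Cd44 had differences of 0.57 and -0.84 and Hyal1 of 0.21, all without passing.

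Of 22 tested genes that make and sulfate chondroitin sulfate, 3 were higher and 1 was lower, with a median difference of 0.26, where 21.9% and 2.27% of all rows were. This balance depended on the scaling, as it did over all rows. Median-of-ratios size factors gave 1 higher and 3 lower (1509 and 1311 of all 12576 rows), and quantile normalization gave 0 and 3 (1103 and 1024). The removal of GC and length trends gave 0 and 5 (538 and 712 of 11700). Chst11, a transferase that sulfates the chain at the 4-position, fell from 159.34 and 154.22 TPM in +/+ to 80.42 and 61.08 TPM in Chd5-/- NSCs (difference -1.15, limma, unadjusted p = 0.00408, adjusted p = 0.120). Of the genes that were higher, B3gat3, which completes the linker between core protein and chain, had a difference of 1.26 and Chpf2, which lengthens the chain, of 1.04. Chst7, a further sulfotransferase, had a difference of -0.54 without passing, and passed as lower with median-of-ratios size factors (-0.90), when quantile normalized (-0.85) and with the trends removed (-1.60).

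Of 14 tested proteases and their inhibitors, 3 were higher (Mmp14, Mmp15 and Timp1) and 0 lower, with a median difference of 0.44, a share like the 21.9% of all rows that were higher. None of the 14 was higher, and 1 was lower, in each of median-of-ratios scaling, quantile normalization and trend removal. Over all rows, too, these settings gave fewer higher and more lower calls. Timp1, an inhibitor of matrix metalloproteases, went from 1.93 and 3.67 TPM to 13.52 and 6.05 TPM (difference 1.45). The gelatinase gene Mmp2 was at 0.76 and 0.28 TPM in +/+ and at 15.17 and 1.34 TPM in Chd5-/- NSCs (2.04, unadjusted p = 0.0783, limma). The aggrecanase gene Adamts1 and the membrane protease gene Mmp16 had differences of -0.67 and -0.27 without passing, and Adamts1 passed as lower with median-of-ratios size factors (-1.01) and when quantile normalized (-1.14).

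Of 10 tested genes among the other matricellular genes, 5 were higher (Smoc1, Spock2, Cyr61, Thbs3 and Fstl1) and 1 was lower, where 21.9% and 2.27% of all rows were. Of the 10, 4 (Ctgf, Postn, Thbs1 and Thbs3) passed the minimum only through the Chd5-/- samples, so this count and the list's median are partly tied to the filter. Of the 5 higher genes this holds for Thbs3 alone. At a minimum mean of 10 TPM, 3 of 4 tested genes were higher and 0 lower, where 1512 and 246 of all 8199 rows were. With GC and length trends removed 2 were higher and 1 lower of 8, where 538 and 712 of all 11700 rows were. The list includes the 6 SPARC family genes other than Sparc and Sparcl1, and 12 of its 24 genes were under 1 TPM in every sample. Reln, which encodes the secreted guidance protein reelin, fell from 2.24 and 11.26 TPM to 0.43 and 0.78 TPM (difference -1.98, limma, unadjusted p = 0.0317). Ctgf, a secreted protein induced by TGF-beta, was at 0.52 and 0.76 TPM in +/+ and at 25.28 and 1.14 TPM in Chd5-/- NSCs, a 20.6-fold ratio of means that did not pass (limma, unadjusted p = 0.115). Spp1, osteopontin, had a difference of 0.24, with values from 1.87 to 56.32 TPM that overlapped between genotypes.

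Of 14 tested core proteins of other proteoglycans, 4 were higher (Gpc1, Gpc2, Sdc3 and Hspg2) and 1 was lower, where 21.9% and 2.27% of all rows were. Of the 14, 3 (Hspg2, Bgn and Dcn) passed the minimum only through the Chd5-/- samples. With GC and length trends removed 0 were higher and 1 lower, where 538 and 712 of all 11700 rows were. Gpc1, a glypican anchored to the membrane, went from 6.67 and 4.58 TPM to 14.04 and 36.29 TPM (difference 1.86), and Hspg2, perlecan, from 0.46 TPM in both +/+ samples to 4.23 and 2.02 TPM (1.44). Gpc6 fell from 30.14 and 24.56 TPM to 13.73 and 11.37 TPM (-1.06, limma, unadjusted p = 0.00872). Sdc4 had a difference of -0.19 without passing.

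Of 14 tested ligands, partners and receptors, 2 were higher (Ncam1 and Ptprf), a smaller share than the 21.9% of all rows, and 1 was lower, with a median difference of 0.56. With GC and length trends removed 0 were higher and 1 lower, where 538 and 712 of all 11700 rows were. Ncam1, a cell adhesion molecule bound by Ptprz1 and Ncan, was at 90.97 and 87.35 TPM in +/+ and at 132.26 and 320.89 TPM in Chd5-/- NSCs, a 2.54-fold ratio of means (limma, unadjusted p = 0.0404). Its call was lost with no minimum, under all 3 other scalings and with the trends removed. Cntn1, a ligand of Ptprz1 and Tnr, had a difference of 1.08 without passing and was at 204.9 TPM in Chd5-/- replicate 2, against 37.96 to 54.86 TPM in the other samples. The integrin gene Itgav fell from 202.42 and 287.66 TPM to 136.32 and 136.33 TPM (-0.82, limma, unadjusted p = 0.0227), and Itga8 had a difference of -0.81 without passing, but passed as lower with median-of-ratios size factors (-1.06) and when quantile normalized (-1.40).

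**Figure D4:**
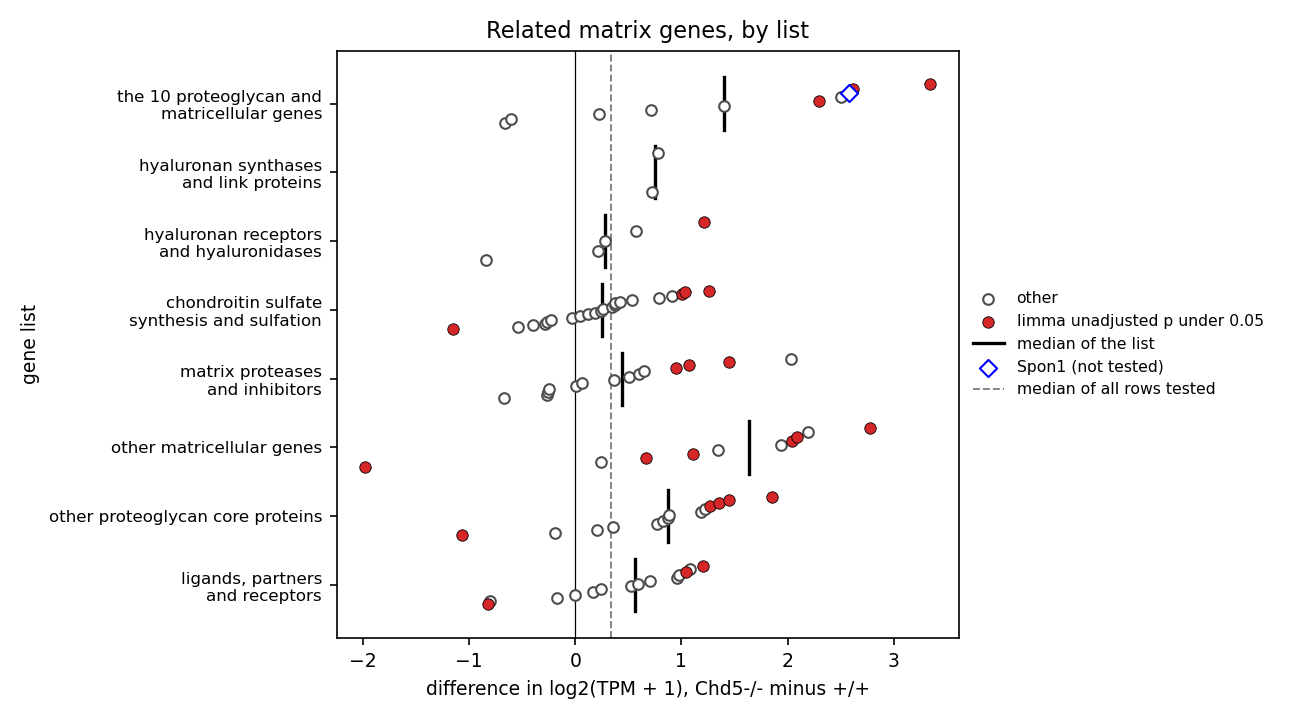
Difference in log2(TPM + 1) between genotypes (Chd5-/- minus +/+) of each tested gene in 8 lists; each circle is a gene, red for an unadjusted p-value under 0.05 in limma, black bars are list medians and the dashed line is the median of all tested rows, 0.34. The median of the members is that of the 9 genes without Spon1, 1.40; Spon1 (diamond) was not tested.

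Single values carry limits from the annotation. In GENCODE M21, 5 of the 10 genes (Tnc, Tnr, Vcan, Cspg5 and Sparcl1) are overlapped by a gene on the opposite strand, 6 such genes in all, none of which has a row in the table. The libraries were made with a stranded kit, but the strand setting of the counting is not given in the sources used here. The table has 1 row per gene, so the isoforms of Vcan, with 8 protein-coding transcripts in the annotation, and the receptor and secreted forms of Ptprz1, with 3, cannot be told apart.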

How the data were processed

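RNA-seq of 2 +/+ and 2 Chd5-/- NSC cultures was analysed. The authors deposited 1 table of TPM values per gene, and their processing notes name Bowtie2 2.2.3, RSEM 1.2.20 and mm10. The gene annotation is not given in the sources used here. Columns were assigned by name.

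TPM was used as deposited and transformed to log2(TPM + 1). Genotypes were compared by limma (version 3.58.1, R 4.3.3, eBayes with a trend, two-sided) in rows averaging 1 TPM or more, with Benjamini-Hochberg adjustment over all 12576 rows and a threshold of 0.05. A gene called higher or lower, or said to pass the test, had an unadjusted limma p-value under 0.05, unless the adjusted threshold is named. No count test was run, because TPM keeps no read numbers. The scripts were tested on simulated data.

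The members and lists were chosen with earlier results of these data known. Named in the text were the 10 members, Chd5, the 2 genes at each end of each of the 7 matrix lists, cell type markers and the 3 rows most like Spon1. Genes outside this rule, such as Spock2 and Fstl1, were named after their values were seen.

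GC content and length came from GENCODE M21 (GRCm38, the build of mm10; 93.0% of rows matched), using the longest protein-coding transcript, and their trends were removed by loess (span 0.5). Promoters came from RefSeq (GRCm38.p6). Alternatives were pseudocounts of 0.1 and 5, no minimum or 10 TPM, 3 scalings, trend removal, a replicate block, other eBayes settings and leaving out each sample.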

Additional observations from a re-analysis of the deposited data

How the results depend on the processing

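The number of rows past the adjusted threshold was 7, and it was 4 with a pseudocount of 0.1, 1 after quantile normalization, 3 with GC and length trends removed and 0 with no minimum, where limma gave 3089 higher and 384 lower rows at an unadjusted p-value under 0.05. Leaving out a sample gave 0 to 1247 rows, and the number of the 9 genes with an unadjusted p-value under 0.05, 3 in all other settings planned, was then 2 to 6. With the replicate block 0 rows passed (limma, 2111 higher and 178 lower at an unadjusted p-value under 0.05), and 0 with the block and the trends removed (363 higher and 439 lower). Same-numbered samples did not deviate alike from their group means (correlation over rows -0.15). With 2 samples per genotype, this cannot show whether the samples were paired in the experiment. A crossed pairing, chosen after seeing the data, gave 5 rows and 4 genes. With the block the same number of the 9 genes, 3, passed the unadjusted threshold. The list of hyaluronan synthases had no row at a minimum of 10 TPM and so no value there.

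Some differences changed sign. Cspg5 was at -0.15 with median-of-ratios size factors, -0.048 when quantile normalized, -0.015 when rescaled less the 20 most abundant rows and -0.25 with the trends removed, with or without the block. In the same order Hyal1 was at -0.14, -0.21, -0.016 and -0.38. Spp1 was at -0.070 and -0.20 in the first 2 of these, and Hapln4 at -0.13 with the trends removed. The median of chondroitin sulfate genes was -0.030 at a minimum of 10 TPM, -0.029 with median-of-ratios size factors, -0.14 when quantile normalized and -0.12 with the trends removed. That of hyaluronan receptors and hyaluronidases was -0.072 and -0.17 after the first 2 scalings, and that of proteases -0.035 after quantile normalization and -0.052 with the trends removed. With a sample left out, differences ranged from -0.15 to 1.58 for Tnc, from -1.87 to 0.54 for Ncan, from -1.31 to 0.11 for Ptprz1, from -0.11 to 0.55 for Cspg5, from -0.55 to 0.97 for Hyal1, from -1.21 to 0.68 for Mmp16, from -1.92 to 2.40 for Spp1 and from -0.92 to 0.54 for Sdc4, and from -0.075 to 0.63 for the median of hyaluronan receptors and hyaluronidases. The cause was not tested. Depth is unknown, so no limit of detection can be given for genes at low TPM.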

Other observations

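Single genes of the 7 matrix lists were also set apart in 1 Chd5-/- sample. The genes named here were chosen after their values were seen, and no test was made. Postn, periostin, was at 15.11 TPM in Chd5-/- replicate 1 and at most 0.06 TPM elsewhere. Thbs1, thrombospondin 1, was at 7.67 TPM there and at most 0.24 TPM elsewhere. Both passed the minimum only through that sample. Gpc4, a glypican, was at 46.25 TPM there, against 9.75 TPM in replicate 2 and 10.4 and 12.06 TPM in +/+ samples.

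Other genes were highest in Chd5-/- replicate 2, the library in which Tnr and Bcan were high. Ptn, the growth factor pleiotrophin that binds Ptprz1, was at 935.03 TPM there, against 212.25 TPM in replicate 1 and 283.18 and 181.28 TPM in +/+ samples. Sdc3, syndecan 3, a further receptor of pleiotrophin, was at 182.04 TPM, against 77.59 TPM in replicate 1 and 51.79 and 45.63 TPM in +/+ samples. Other syndecans went the other way, with Sdc2 at 118.55 TPM in replicate 2 and 275.45 TPM in replicate 1, and Sdc4 at 42.68 and 119.14 TPM. Cspg4, the NG2 proteoglycan of oligodendrocyte progenitors, was at 10.93 TPM in replicate 2, against 3.25 to 4.73 TPM in the other samples.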
